A study of Mus musculus with 13 samples.

Results

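PD169316 and SB203580 are p38 mitogen-activated protein kinase inhibitors of the pyridinyl imidazole class, and their RNA profiles were compared directly in S1, a feeder-free line of mouse embryonic stem (ES) cells. The comparison used 7 of the 13 arrays of the series, chosen by sample title. On the MG-U74A array these were 2 arrays of cells given PD169316 and 1 of cells given SB203580, and on MG-U74Av2 2 arrays for each compound. Both compounds were given at 10 µM for 3 days, so dose and time were matched and 1 pair of compounds was compared. All cells had been grown with 500 pM leukaemia inhibitory factor (LIF), the cytokine that holds mouse ES cells undifferentiated, and were plated at 10000 cells per ml without it. RNA came from the adherent cells alone, so detached cells were not measured. The 4 arrays of untreated S1 cells, 2 per chip version, served to estimate the spread and to show where each compound's level lay, and what the untreated cells received in place of a compound is not given in the sources used here. Whether replicates were separate cultures is not stated in the labels. The p-values therefore reflect only how far these arrays lie apart, and that spread may be technical. S1 is 1 line, and kinase activity was not measured, so equal concentration does not show equal inhibition of p38.

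The p38 kinases are switched on by stress and cytokines and pass the signal to downstream kinases such as Mapkapk2 and to transcription factors. Pyridinyl imidazoles occupy the ATP pocket of p38 alpha and p38 beta, and they are known to reach other kinases as well. The structures of PD169316 and SB203580 differ in a substituent on a phenyl ring attached to the imidazole, where PD169316 carries a nitro group and SB203580 a methylsulfinyl group. Metallothioneins, which were among the genes that differed most, are small cysteine-rich proteins that bind zinc and copper, and their genes are switched on through metal response elements by the zinc-sensing factor MTF-1.

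The promoters of the metallothionein genes Mt1 and Mt2 are shown because both genes were higher with PD169316 and lie close together on chromosome 8. The sequences are those of RefSeq on GRCm38.p6, from 250 bases before to 50 bases after the annotated start, 5′ to 3′ on the plus strand. Capitals mark TGCNCNC, a relaxed form of the core of the metal response element, searched on both strands. The Mt1 window is chr8:94178839-94179138 and the Mt2 window is chr8:94172368-94172667.
Mt1: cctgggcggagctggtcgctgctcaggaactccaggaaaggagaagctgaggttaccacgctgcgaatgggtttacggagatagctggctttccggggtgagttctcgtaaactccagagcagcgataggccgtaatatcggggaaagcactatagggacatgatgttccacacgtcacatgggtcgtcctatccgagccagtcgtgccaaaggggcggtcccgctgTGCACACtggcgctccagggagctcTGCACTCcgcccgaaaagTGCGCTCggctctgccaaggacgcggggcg
Mt2: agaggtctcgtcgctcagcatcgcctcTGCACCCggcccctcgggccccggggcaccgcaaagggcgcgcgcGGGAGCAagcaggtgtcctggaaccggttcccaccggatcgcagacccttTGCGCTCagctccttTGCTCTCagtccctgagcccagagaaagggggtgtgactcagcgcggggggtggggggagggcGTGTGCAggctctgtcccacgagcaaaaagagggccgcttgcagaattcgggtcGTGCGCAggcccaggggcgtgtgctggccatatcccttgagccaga
The Mt1 window held 3 matches, and the Mt2 window held 6, of which 3 lay on each strand. Of 32851 RefSeq promoters of 300 bases, 51% held at least 1 match, 7.1% at least 3 and 0.225% at least 6. Promoters were matched for 4 of the 6 named genes that passed the test. Those of S100a6 and Cpt1a held 2 and 1 matches. A match describes the letters of a window and is no measured binding site.

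The values are Affymetrix signals, an intensity per probe set that the authors scaled to the same trimmed mean on every array. Median signals of the S1 arrays lay between 89.7 and 131.7, and 21.9% to 29.8% of probe sets lay at or under the floor of 32 set here. Arrays were hybridized on 5 days. Replicate 1 of both compounds on both chip versions was hybridized on the third of them, PD169316 replicate 2 of U74A on an earlier day with no SB203580 array, and replicate 2 of U74Av2 on consecutive days, SB203580 1 day before PD169316. In that last session day and compound cannot be told apart. The ratio of 3' to 5' Actb probe sets, which rises as RNA degrades, was 1.9 to 2.25 on the 4 PD169316 arrays and 1.46 to 1.87 on the 3 SB203580 arrays. Its part in the results was not tested. For Gapdh the ratio was 1.706 on SB203580 replicate 2 of U74Av2 and 0.874 to 1.2 on the other 6. ES cell markers were detected with both compounds. None of the 8 ES marker genes measured on U74Av2 was under a signal of 100 on all 4 compound arrays, and their summed signal was 24961 and 27978 with PD169316 and 29492 and 25612 with SB203580. On U74A the 6 markers measured there summed to 12909 and 10118 with PD169316 and 18187 with SB203580. Untreated arrays had ES marker sums of 37400 and 38591 on U74Av2 and of 20936 and 15486 on U74A. Both compounds thus lay below the untreated arrays on U74Av2, while on U74A PD169316 lay below them and SB203580 between them. Single markers could be dim on 1 array, as Tdgf1 was at 15.9 on PD169316 replicate 1 of U74A. Fibroblast markers, which would mark feeder cells, summed to 2766 and 2012 on U74Av2 with PD169316 and to 2102 and 1892 with SB203580. On U74A those sums were 1704 and 2744 with PD169316 and 1277 with SB203580, and 7 of 11 fibroblast markers were under 100 on all 3 arrays. Their part in the results was not tested.

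Cells given PD169316 had more RNA than cells given SB203580 for the metallothioneins Mt1 and Mt2, for the calcium-binding protein gene S100a6, for Lgals1, which encodes the sugar-binding protein galectin-1, and for Ephx2 and Cpt1a of lipid metabolism. These 6 genes were 4.27 to 8.51 times as high with PD169316. In a joint limma fit of both chip versions, 7 of 5369 probe sets passed an adjusted p of 0.05, all higher with PD169316 (0.13% of those tested), and 0 passed lower. A gene is said to have passed, or not, by this joint fit unless another fit is named. The other of the 7 probe sets, 98600_at, carries several gene symbols and is left without a gene name. Before adjustment 439 probe sets had a p under 0.05, against 268 from chance alone. RNA was taken from all adherent cells together, so fewer cells of a type and less RNA per cell cannot be told apart.

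Mt2 had U74A signals of 23949.7 and 31455 with PD169316 (replicates 1 and 2) and 7436 with SB203580. On U74Av2 it had 29139.8 and 22036 with PD169316 and 6820.3 and 4007 with SB203580. The groups did not overlap in either table, and every PD169316 array lay far above both untreated arrays of its table, which were at 6138 and 5791 on U74A and at 6034 and 3374 on U74Av2. The log2 difference was 2.19 ± 0.26 (SE; 95% confidence interval 1.64 to 2.74; limma, adjusted p = 0.00176). Mt1 had 12964 and 13587 with PD169316 against 2424 with SB203580 on U74A, and 12099 and 11998 against 2653 and 2365 on U74Av2. Its PD169316 arrays agreed closely within each table, and its SB203580 arrays lay within the untreated range on U74A (1593 and 3358) and above it on U74Av2 (1801 and 806). Mt1 differed by 2.31 ± 0.34 (1.58 to 3.04; limma, adjusted p = 0.00619). Mt1 and Mt2 transcripts are similar in sequence, and cross-hybridization between their probe sets was not tested. The brain-type metallothionein gene Mt3 had 1116 and 1148 against 672 on U74A and 969.5 and 1078 against 711 and 596 on U74Av2. Its groups did not overlap either, but the difference of 0.72 ± 0.24 did not pass (limma, adjusted p = 0.341). Among the other 6 genes tested of the metal-handling list, the zinc transporter gene Slc39a1 was at 0.70, the zinc transporter gene Slc39a4 at 0.45, the ferritin gene Fth1 at 0.07, the iron transporter gene Slc11a2 at -0.01, the transferrin receptor gene Tfrc at -0.12 and Mtf1, the gene of MTF-1, at -0.31 on the log2 scale. None of those 6 passed.

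S100a6 showed the largest difference of the 7. Its signals were 2196 and 1706 with PD169316 against 215 with SB203580 on U74A, and 2037 and 583 against 168 and 113 on U74Av2. No groups overlapped, though the PD169316 arrays of U74Av2 were themselves several-fold apart. The log2 difference was 3.09 ± 0.42 (2.19 to 3.99; limma, adjusted p = 0.00523). Lgals1 had 6224 and 4427 against 855 on U74A, and 6022 and 1769 against 1154 and 605 on U74Av2. The pattern over arrays was that of S100a6, with the lowest PD169316 value in the last session. Lgals1 differed by 2.19 ± 0.40 (1.34 to 3.04; limma, adjusted p = 0.0439). It stood closest to the threshold, passing in 13 of 28 alternative fits with adjusted p from 0.00142 to 0.476.

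The list of annexins, S100 proteins and galectins, proteins that bind calcium, membranes or sugars, had 11 genes tested, of which these 2 passed and 0 passed lower. Its median log2 difference was 1.08, where that of all 4360 genes tested was 0.04. The list was chosen with earlier results of these data known, so its median and counts are a description. Signals did not overlap in either table for 7 of the 11, all higher with PD169316, where 12.1% of all genes separated in that direction and 8.17% in the other. The signal filter asked for 100 or more on at least 2 S1 arrays of each chip version. On U74A, with 2 PD169316 arrays and 1 SB203580 array, a gene that bright only with PD169316 could enter. A gene that bright only with SB203580 could not, so the shares of higher and lower genes are not on equal terms. Anxa1, which encodes annexin A1, had 312 and 318 with PD169316 against 38.6 on U74A, and 359.5 and 122 against 48.9 and 11.8 on U74Av2. Its SB203580 signals were near or under the floor, so its log2 difference of 2.67 ± 0.66 understates the change of signal (limma, adjusted p = 0.175). The untreated and SB203580 signals of Anxa1 were all under 100, so it met the signal filter only through its PD169316 arrays. It could thus be counted only as higher. Anxa3 stood at 1.88 ± 0.46 (limma, adjusted p = 0.175) and Anxa2 at 1.92, and neither passed. S100a10, whose protein pairs with annexin A2, was at 0.98, and Anxa7 was at -0.25, the only negative value of the list.

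Ephx2, the soluble epoxide hydrolase that opens fatty acid epoxides, had signals of 505 and 393 with PD169316 against 89.4 with SB203580 on U74A, and 577 and 613 against 88.3 and 101 on U74Av2. The PD169316 arrays were all above the SB203580 and the untreated arrays of their table. The log2 difference was 2.45 ± 0.36 (1.68 to 3.22; limma, adjusted p = 0.00619). Cpt1a, the carnitine palmitoyltransferase that admits long-chain fatty acids to mitochondria, had 819 and 420.0 against 103 on U74A, and 746 and 514 against 116 and 180.5 on U74Av2. Here the compounds lay on opposite sides of the untreated cells, which were at 245 and 397 on U74A and 251 and 216 on U74Av2. Cpt1a differed by 2.09 ± 0.35 (1.34 to 2.85; limma, adjusted p = 0.0224), and it passed in 18 of 28 alternative fits. Both are known target genes of the fatty acid receptor PPAR alpha in liver. Of 18 genes tested in the list of fatty acid oxidation and PPAR target genes these 2 passed and 0 passed lower, with a list median of 0.38. Signals of 9 of the 18 separated in both tables, all higher with PD169316, beside 12.1% higher and 8.17% lower over all genes. This list too was chosen with earlier results of these data known, so its counts are a description. Fabp3, a fatty acid carrier, was at 2.31 ± 0.50 (limma, adjusted p = 0.115). Its signals were 894 and 718 against 171 on U74A and 678 and 408 against 203 and 66.1 on U74Av2. The peroxisomal and mitochondrial isomerase gene Ech1 was at 0.86, the lipid droplet coat gene Plin2 at 0.80, and Hadh of the beta-oxidation spiral at 0.59. Cpt2, the partner enzyme of Cpt1a, was at -0.13, Acadm at 0.14 and the PPAR target gene Angptl4 at 0.33. None of these 7 passed.

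The unnamed probe set 98600_at had signals of 1564 and 1434 with PD169316 against 386 on U74A, and 1256 and 1108 against 408 and 336 on U74Av2. Its difference was 1.82 ± 0.26 (1.28 to 2.36; limma, adjusted p = 0.00523), and no groups overlapped.

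**Figure D1:**
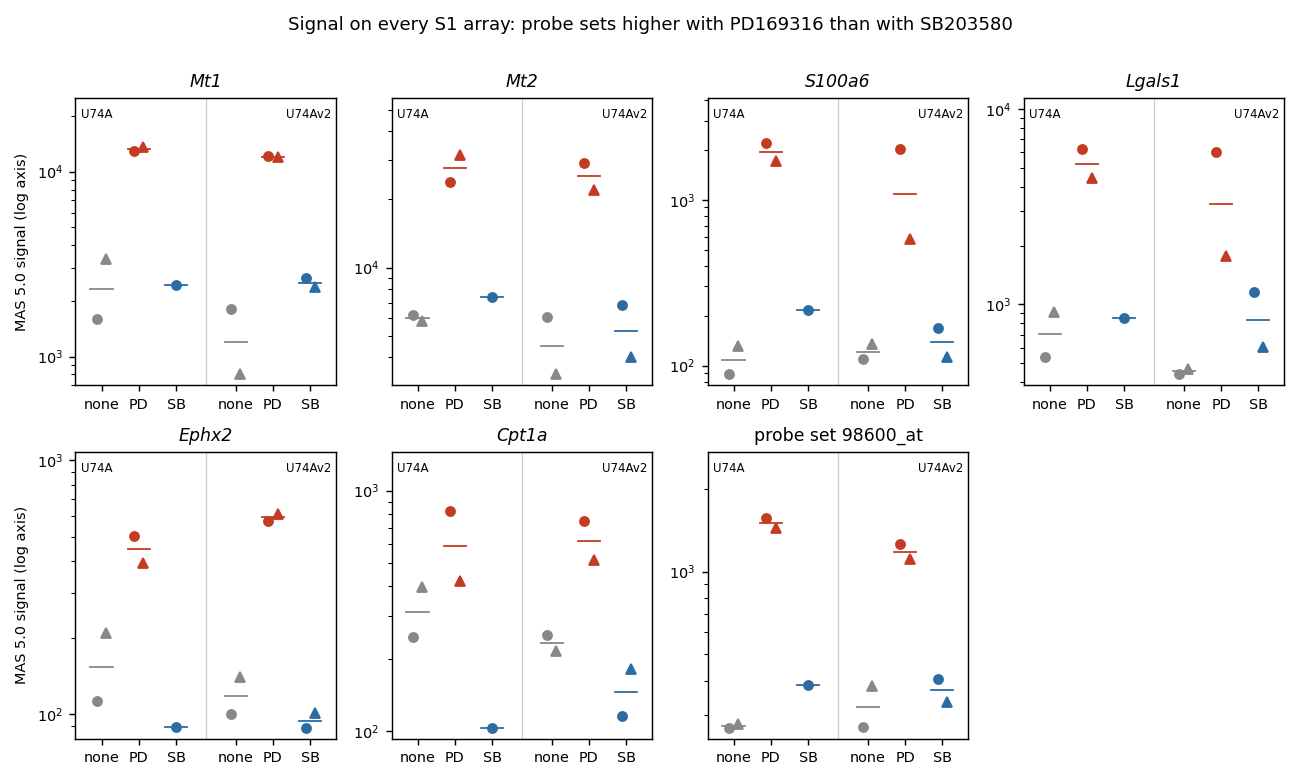
Signal (log axis) of the 6 named genes and probe set 98600_at that passed, on each S1 array, left of the grey line on U74A and right of it on U74Av2. Circles are replicate 1, triangles replicate 2, bars the geometric mean, with untreated cells (none) in grey, PD169316 (PD) in red and SB203580 (SB) in blue. Every red point lies above every blue point of its table.

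The 7 probe sets were examined on each chip version and hybridization day. On U74Av2 alone, Mt2, Mt1 and Ephx2 passed among 7050 probe sets (0.0426%), and on U74A alone, with 1 SB203580 array, 0 of 5681 passed (0%), while 213 had a limma p under 0.05 before adjustment, against 284 from chance alone. A test of whether the contrast differed between chip versions passed for 0 of 5369 by limma (159 at a p under 0.05 before adjustment, against 268 from chance alone). It does not show that the versions agree, since its median 95% confidence interval reached 1.25 on the log2 scale to either side and 6.52% of intervals lay within a 2-fold difference. With the hybridization session as a block, 10 of 5369 passed over both versions (0.186%), which held all 7 and added the actin-sequestering gene Tmsb4x (1.40) and the phosphatase gene Dusp9 (1.44), both higher, and the pyruvate kinase gene Pkm (-0.91), which was lower. With the exact hybridization day as a block, an alternative chosen after seeing the data that sets the 2 days of the last session apart, 2 passed, Mt2 (2.01) and Mt1 (2.32), and S100a6, Ephx2, Lgals1, Cpt1a and 98600_at did not. On U74Av2 with the session block 22 of 7050 passed (0.312%), 16 higher and 6 lower. Among them were the higher Igf2, Tfap2c, Cd9, Sparc and Fbxo15 and the lower Fgf15 (-2.50) and both probe sets of Lef1 (-2.45 and -1.54). The same-day pair of U74Av2 on the third day gave log2 differences of 3.60 for S100a6, 2.71 for Ephx2, 2.68 for Cpt1a, 2.38 for Lgals1, 2.19 for Mt1 and 2.10 for Mt2. In the last session the corresponding values were 2.37, 2.61, 1.51, 1.55, 2.34 and 2.46. The sessions lay closer together for the metallothioneins and Ephx2 than for S100a6, Lgals1 and Cpt1a, which had their smaller values in the last session. Of 21 probe sets named as highest or lowest, 16 had the larger difference on the third day.

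Single arrays decided part of the count. Among them was SB203580 replicate 2 of U74Av2, the SB203580 array of highest Gapdh ratio (1.706), hybridized 1 day before its PD169316 partner. The part of that ratio and day was not tested. Without SB203580 replicate 2 of U74Av2, 1 probe set passed, that of Mt2. Without PD169316 replicate 2 of U74Av2, 16 passed, 9 higher and 7 lower, and the lower ones included Pim2 (-3.43), Utp14a (-1.97) and Srm (-1.62). Leaving out untreated replicate 1 of U74A gave 12 and untreated replicate 2 gave 25, and leaving out any other array gave 5 or 6. The differences of the 6 named genes kept their sign in all 28 alternative fits. Mt2 ranged from 1.89 to 2.30 and passed in 27, Mt1 ranged from 2.11 to 2.40 and passed in 25, S100a6 from 2.84 to 3.64 and Ephx2 from 2.24 to 2.60, each passing in 24.

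**Figure D2:**
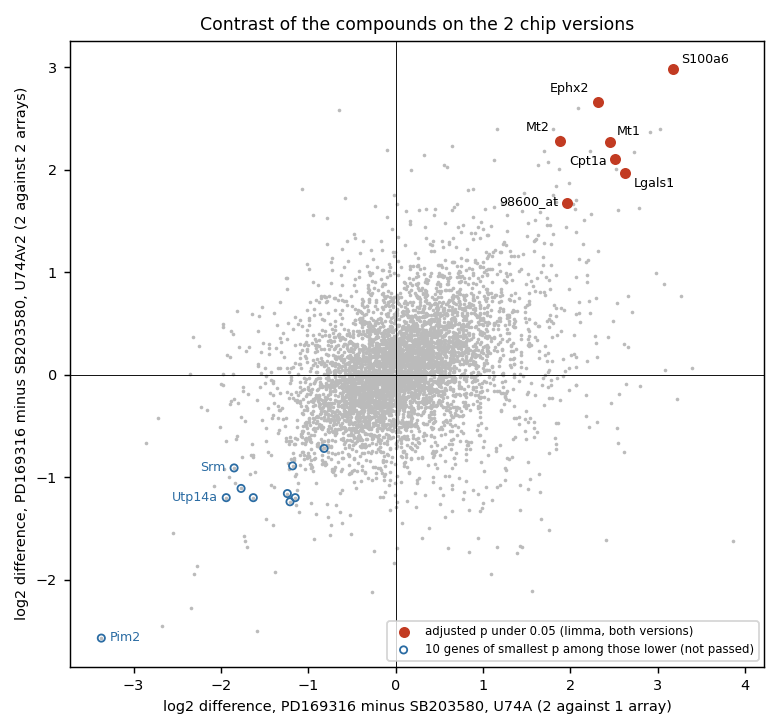
Log2 difference of PD169316 minus SB203580 on U74A (x axis, 2 arrays against 1) and on U74Av2 (y axis, 2 against 2) for the 5369 probe sets tested on both. Red points passed the joint limma fit, and all 7 lie in the upper right. Open blue circles are the 10 genes of smallest p among those lower, led by Pim2, none of which passed that fit.

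Higher genes that came next by p were Tfap2c, a transcription factor gene active in trophoblast and germ cells, at 1.90 ± 0.36 (limma, adjusted p = 0.0549), and the fetal growth factor gene Igf2 at 2.14 ± 0.42 (limma, adjusted p = 0.0632). Tfap2c had signals of 767 and 703 with PD169316 against 186 with SB203580 on U74A, and 1009 and 711 against 198 and 272 on U74Av2. Igf2 had 1271 and 1026 against 327 on U74A, and 662 and 404 against 70.0 and 137 on U74Av2. Both genes separated in both tables and did not pass. Tfcp2l1, a transcription factor gene of naive ES cells, was at 1.80 ± 0.36 (limma, adjusted p = 0.0699), and its second probe set was at 0.92.

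No gene passed the joint fit as lower with PD169316. Pim2, which encodes a serine/threonine kinase that promotes survival, had the largest negative value of all genes tested. Its signals were 127 and 467 with PD169316 against 2514 with SB203580 on U74A, and 210.2 and 1464 against 2855 and 3795 on U74Av2. The SB203580 arrays were near the untreated ones (2669.8 and 1540.5, 3619 and 2714), and the PD169316 arrays differed several-fold among themselves in each table. The difference was -2.72 ± 0.54 (-3.88 to -1.57; limma, adjusted p = 0.0699), with -3.76 in the third-day pair of U74Av2 and -1.37 in the last session. Srm, the spermidine synthase of polyamine production, had 1029 and 854 against 3387 on U74A, and 1483 and 2295 against 3332 and 3596 on U74Av2. Its groups separated in both tables at -1.30 ± 0.27 (limma, adjusted p = 0.0949). Utp14a, a factor of ribosomal RNA processing, stood at -1.46 ± 0.35 and the DNA methyltransferase gene Dnmt3a at -1.26 ± 0.32 (limma, adjusted p = 0.175 and 0.191). The remaining 6 were Mbtd1 (-1.26), the mitochondrial serine transporter gene Sfxn1 (-1.18), the ES cell chromatin gene Utf1 (-1.01), the amino acid transporter gene Slc7a7 (-1.20), the POU factor gene Pou3f1 (-1.43) and Marcksl1 (-0.78). Their adjusted p in limma lay between 0.149 and 0.267.

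Lef1, the transcription factor of Wnt signalling, had 70.7 and 329 with PD169316 against 894 on U74A, and 306 and 370.1 against 969.6 and 987 on U74Av2. Its difference was -1.78 ± 0.51 (limma, adjusted p = 0.291), and its second probe set was at -2.45 ± 0.52 (limma, adjusted p = 0.097). Both probe sets separated in both tables.

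**Figure D3:**
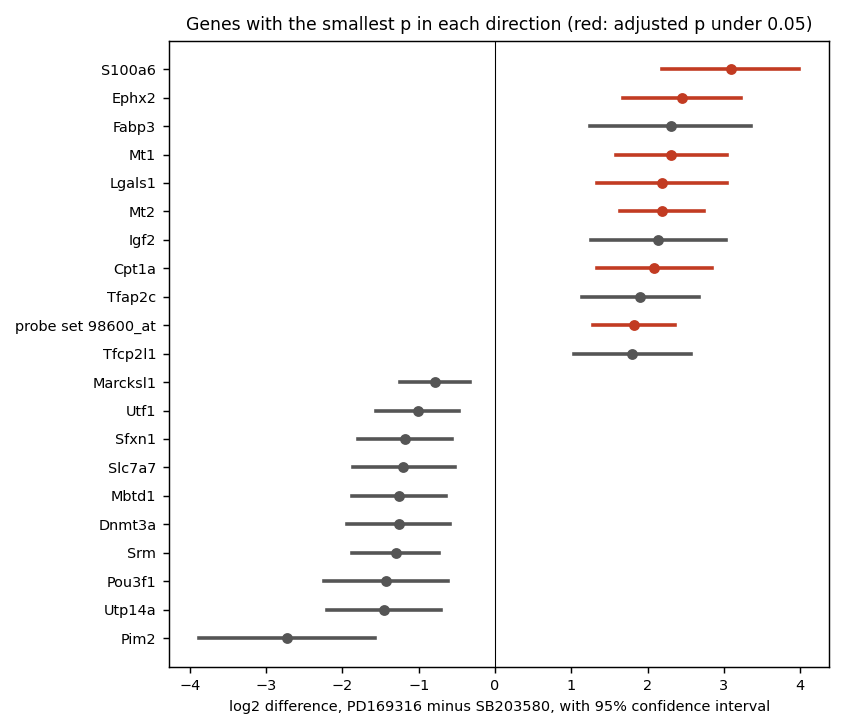
Log2 difference of PD169316 minus SB203580 (points) with the 95% confidence interval (bars) from the joint limma fit, for probe set 98600_at and the 10 genes named in each direction. Red marks an adjusted p under 0.05. No interval shown crosses 0, and all red points are on the right.

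Gene lists were described by the number of members whose signals separated in both tables, beside 12.1% of all genes for higher and 8.17% for lower. All lists were chosen with earlier results of these data known, so their counts and medians are a description. The signal filter admitted genes bright only with PD169316, but on U74A no gene bright only with SB203580. Krt19 on U74Av2, Tgfbi on U74A, and Anxa1 and Acta1 on both versions met it only through PD169316 arrays. Passing members are those already named. In the list of keratins, basement membrane and primitive endoderm 7 of 17 genes separated, all higher, with a median of 0.77. They were Krt8, Krt18, Krt19, Sparc, Serpinh1, Apoe and Plat. Sparc, a matrix glycoprotein, was at 1.48 ± 0.34 (limma, adjusted p = 0.142). The basement membrane collagen gene Col4a1 was at 0.98 and did not separate, nor did Col4a2, Lama1, Lamb1, Nid2 and Hspg2. The keratin genes Krt19, Krt8 and Krt18 were at 2.25, 1.31 and 1.14, while Gata4 of the endoderm was at 0.36 with a confidence interval from -2.01 to 2.73. Dab2 was at 0.03 and Lrp2 at -0.03, and neither these nor Gata4 separated. In the lysosomal list 5 of 11 separated, all higher (median 0.53), with the cathepsin inhibitor gene Cstb at 0.92 and the cathepsin gene Ctsd at 0.89.

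Actin and actin-binding genes separated in 7 of 24, all higher (median 0.33). The muscle actin gene Acta1 had 365 and 384 against 42.7 on U74A and 423 and 236 against 85.0 and 83.7 on U74Av2, a difference of 2.24 ± 0.58 that did not pass (limma, adjusted p = 0.212). Acta1 also met the signal filter only through its PD169316 arrays and could be counted only as higher. The smooth muscle gene Tagln was at 1.30 and Tmsb4x at 1.27. The cytoplasmic actin genes Actb and Actg1 were at 0.34 and -0.07. Epithelial adhesion genes separated as higher in 6 of 22 and lower in 1 (median 0.35), led by the claudin gene Cldn4 (1.54), the tetraspanin gene Cd9 (1.52) and the secreted protein gene Wfdc2 (1.49). In the list of the p38 cascade and immediate early genes 6 of 23 were higher and 1 lower (median 0.47). The stress-induced genes Ddit3 (2.21), Gadd45b (1.73) and Atf3 (1.12) had the largest values of its separated members. A second probe set of Atf3 was at 0.45 and did not separate. Gadd45b differed by 3.07 on U74A, where SB203580 was under the floor at 26.4, and by 0.88 on U74Av2. On U74A the PD169316 signals of Ddit3 (517 and 699.6) lay within the untreated range (191 and 825). In the p53 and pro-apoptotic list 5 of 15 separated, all higher (median 0.23), among them Perp (1.42) and Sfn (1.03). The antioxidant list had 4 of 16 higher and 1 lower (median 0.21), with the lipid peroxidase gene Gpx4 at 1.13 and Gclc, which encodes the catalytic subunit of glutamate-cysteine ligase, at -0.42. No member of the actin, epithelial, p38, p53 and antioxidant lists passed the joint fit, and some did in alternative fits, such as Acta1, Cldn4 and Wfdc2 without the control arrays.

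Members that separated in the Myc and cell cycle lists were mostly lower with PD169316, beside 8.17% lower and 12.1% higher over all genes. The Myc, polyamine and ribosome biogenesis list had 8 of 20 lower and 0 higher (median -0.43). Myc itself was at -2.30 ± 0.74 and Mycn at -1.50 ± 0.45 (limma, adjusted p = 0.341 and 0.311). Mycn had 398 and 277 with PD169316 against 882 on U74A and 304 and 799 against 954 and 1967 on U74Av2, without overlap, and the untreated arrays of U74A were at 1320.2 and 449. Cell cycle and DNA replication genes had 10 of 27 lower and 1 higher (median -0.32). The anaphase activator gene Cdc20 was at -0.86 and the kinase genes Plk4 and Plk1 at -0.81 and -0.67, and the proliferation marker Mki67 at 0.14. The intervals of 19 of the 27 stayed within a 2-fold difference either way. In glycolysis and hypoxia 2 of 15 were lower and 1 higher (13.3% and 6.67%, median -0.48), not far from the shares of all genes. Ldha, the lactate dehydrogenase, was at -1.08 and Pkm at -0.82. The PD169316 arrays of Ldha lay several-fold apart, at 3405 and 11676 on U74A and 3913 and 11242 on U74Av2. No member of these 3 lists passed the joint fit, and some did in alternative fits, among them Srm and Utp14a without PD169316 replicate 2 of U74Av2.

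Pluripotency genes went both ways, with 5 of 19 separated as higher and 4 as lower. Their median was -0.10 with the authors' scaling and 0.03 after quantile normalization. Besides Tfcp2l1, the higher ones included the F-box gene Fbxo15 (1.74 ± 0.40) and the nuclear receptor gene Nr0b1 (0.99), and the lower ones Utf1 and Fgf4 (-0.78). In LIF receptor, STAT3 and Pim genes 4 of 12 were higher and 3 lower (median 0.30), where Stat3 was at 0.53 and the signal suppressor gene Socs2 at -0.96. In the Wnt list 1 of 14 was higher and 2 were lower (median -0.24). Chaperone genes had 2 of 14 lower and 0 higher (median -0.21), and housekeeping genes 1 of 10 lower (median -0.08).

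**Figure D4:**
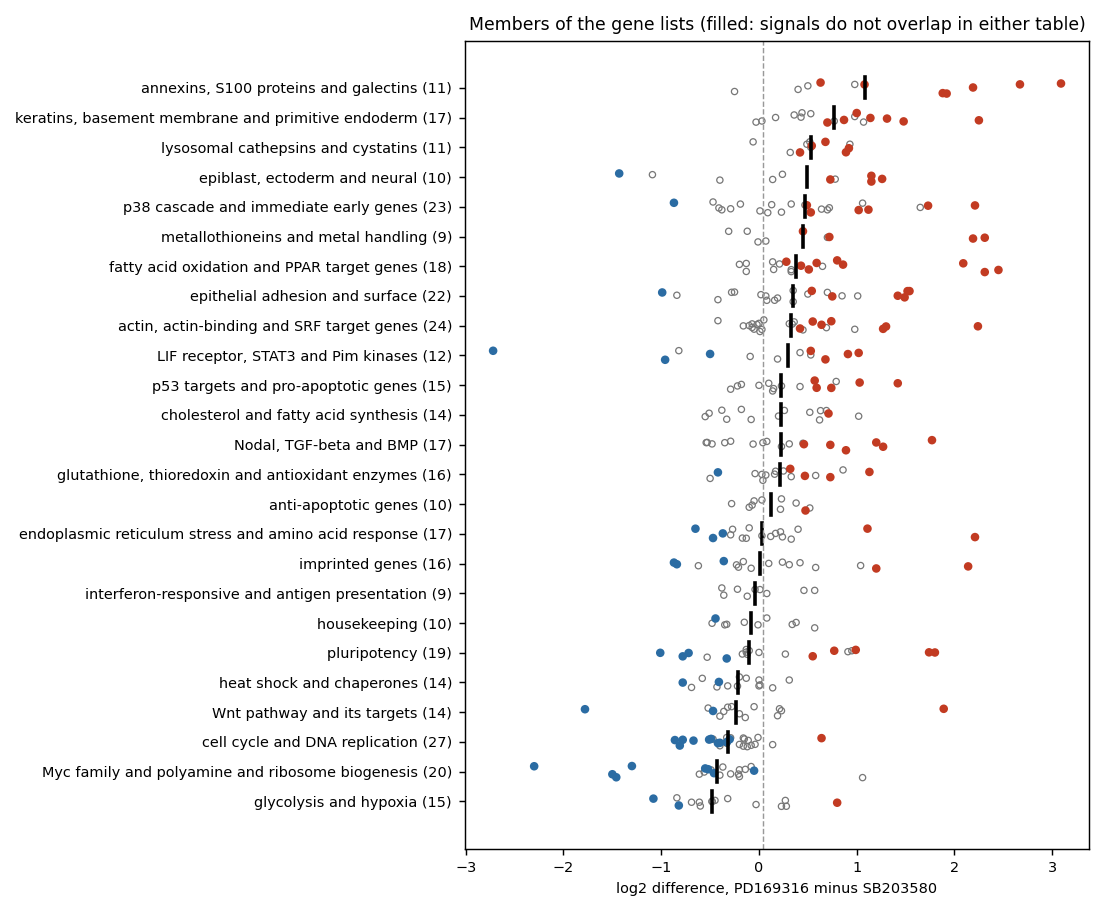
Log2 difference of PD169316 minus SB203580 for each tested member of the lists with at least 9 tested genes (number in brackets), vertically jittered. Filled points are members whose signals did not overlap between compounds in either table (red higher, blue lower), black bars are list medians, and the dashed line is the median of all genes, 0.04. The annexin list has the highest median, 1.08, and the glycolysis list the lowest, -0.48.

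The untreated arrays show where the compounds stood apart. A compound was counted where all its arrays lay beyond the untreated arrays on the same side in both tables. Among the 10 named higher genes this held for PD169316 in 10 and for SB203580 in 1, which was Cpt1a. Among the 10 named lower genes these counts were 9 and 1, the latter being Marcksl1. These genes were chosen by the difference between the compounds, so the counts are a description.

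For some genes it was SB203580 that lay apart from the untreated cells. Nanog, the homeodomain factor of naive ES cells, was measured on U74Av2 and had 2598 and 2052 with PD169316, 934 and 1029 with SB203580, and 2414 and 2888 in untreated cells. The SB203580 arrays were lowest, and the PD169316 arrays overlapped the untreated ones. The difference between compounds was 1.24 ± 0.25 (0.70 to 1.78; limma, adjusted p = 0.176). Dmtn, which encodes the actin-bundling protein dematin, had 278 and 90.1 with PD169316 against 51.1 with SB203580 on U74A and 256 and 196 against 56.5 and 51.8 on U74Av2. Untreated cells gave 353 and 221 on U74A, and 256 and 217 on U74Av2, so SB203580 was the lowest condition in both tables. Dmtn differed between the compounds by 1.75 ± 0.46 (0.77 to 2.73; limma, adjusted p = 0.213). Fbxo15 had 449 and 386 with PD169316, 125 and 76.6 with SB203580, and 205 and 268 untreated on U74Av2, so that the compounds lay on opposite sides of the untreated cells. On U74A, where it had 432 and 233 against 146, the untreated signals of 140.4 and 314 covered SB203580.

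The genes of Nodal signalling, in which the ligand Nodal binds the co-receptor Tdgf1 and induces its own inhibitor Lefty1, overlapped between the compounds in at least 1 table. Nodal had 345 and 381 with PD169316 against 227 with SB203580 on U74A, and 291 and 320.5 against 283 and 353 on U74Av2, where untreated cells had 817 and 647. Lefty1 had 114 and 544 against 339 on U74A and 307 and 456 against 257 and 358 on U74Av2, and its untreated arrays were at 1035 or above in both tables. With both compounds these genes lay below the untreated range of each table. The difference between compounds was 0.23 for Nodal (95% confidence interval -0.35 to 0.80), 0.08 for Lefty1 (-0.92 to 1.09) and -0.53 for Tdgf1 (-1.79 to 0.73). The interval of Nodal excludes a 2-fold difference, and those of Lefty1 and Tdgf1 do not. In the whole list of Nodal, TGF-beta and BMP genes 6 of 17 separated, all higher with PD169316 (median 0.23), beside 12.1% higher and 8.17% lower over all genes. They were Tgfbi (1.77), Smad6 (1.27), Ccn1 (1.20) and the inhibitors of differentiation Id1 (0.73), Id2 (0.89) and Id3 (0.46), none of which passed.

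Genes of the kinase pathway itself were measured too. Mapk14, which encodes p38 alpha, was at -0.29 (-0.84 to 0.25), and Mapkapk2 at 0.13 (-0.45 to 0.71), and both intervals exclude a 2-fold difference. The ES cell factor gene Pou5f1 had 5034 and 3450.4 with PD169316 against 6454 on U74A and 5628 and 6599 against 7408 and 4130.3 on U74Av2. Its groups overlapped on U74Av2, with a difference of -0.10 (-0.62 to 0.42). Of all 5369 probe sets, 2267 (42.2%) had an interval within a 2-fold difference either way, and for the rest a difference of that size was not excluded. The number of arrays limits this precision.

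**Figure D5:**
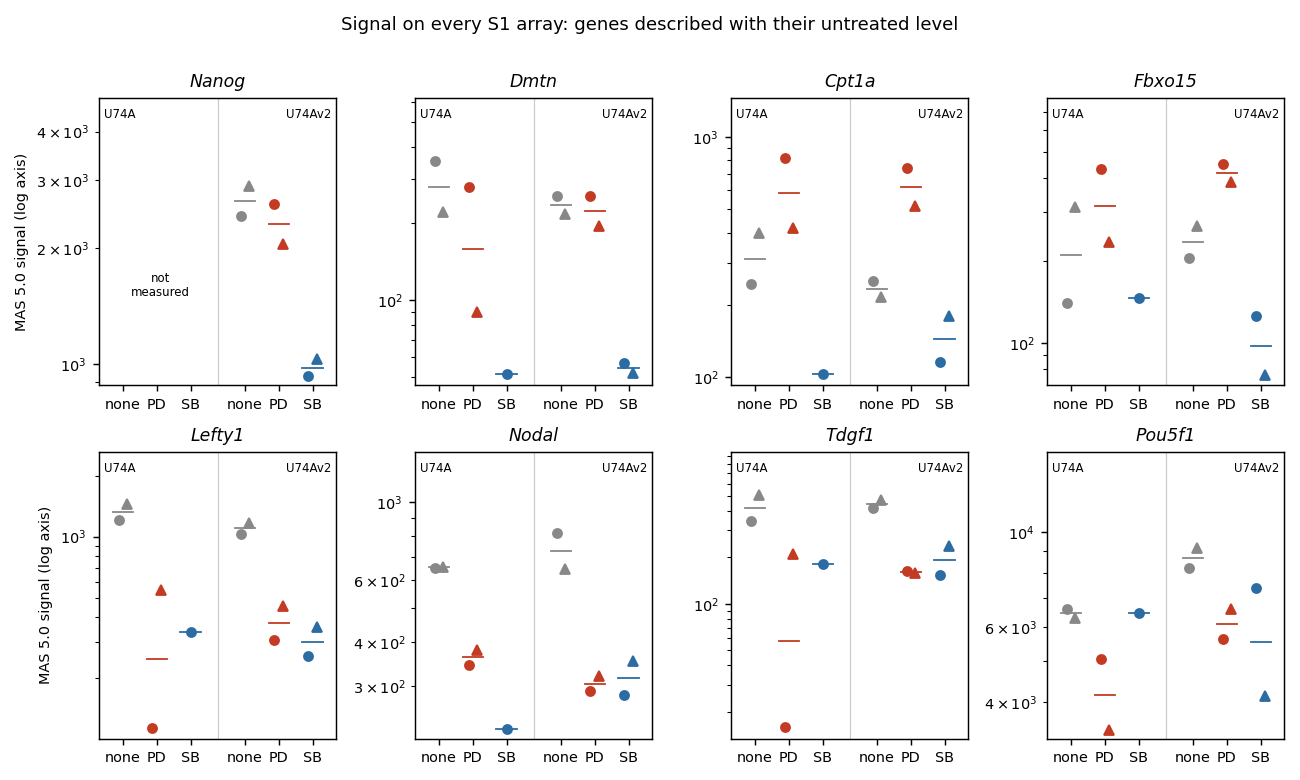
Signal (log axis) on each S1 array of 8 genes, with symbols as in the plot of the genes that passed. SB203580 is the lowest condition for Nanog and Dmtn, and both compounds lie below the untreated cells for Lefty1, Nodal and Tdgf1. For Pou5f1 the compounds overlap on U74Av2.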

How the data were processed

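RNA of mouse ES cells was hybridized to Affymetrix MG-U74A and MG-U74Av2 arrays. Per the labels' protocols, the authors computed the deposited intensities with Microarray Suite 5.0 and scaled each array to a trimmed mean of 300. Hybridization days came from the deposited experiment files. The steps below were done here. Groups came from sample titles. Signals under a floor of 32 were raised to it and log2 was taken, which understates differences of dim genes. Array control probe sets and the 2611 U74A probe sets listed at 0 on every array were left out. Probe sets with a signal of 100 or more on at least 2 S1 arrays of each table entered limma 3.58.1 (R 4.3.3, statmod 1.5.0; two-sided, intensity trend, Benjamini-Hochberg, threshold 0.05). As U74A held 1 SB203580 array, a probe set that bright only with SB203580 could not enter, whereas 1 that bright only with PD169316 could. The joint fit used the 11 S1 arrays with a term for chip version, so no level was compared across tables. Same-day arrays of 1 condition on both versions may carry 1 RNA and were a random block (consensus correlation 0.434). Their deviations from the mean of all S1 arrays of their chip version correlated at 0.23 to 0.362, against -0.059 to 0.196 for other pairs of a condition. Condition means were not removed, so both ranges also hold the effect of the condition. The fit of U74Av2 used 6 arrays, that of U74A 5, whose single SB203580 array was assumed to vary like the others.

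Names came from the platform annotation, by which 10298 U74A probe sets had 1 symbol, 363 several and 1993 none, and 10855, 396 and 1237 on U74Av2. A gene was represented by its tested probe set with the highest mean U74Av2 signal. Named genes were the passing ones with the same sign in both tables, up to 15 each way and filled to 10 by smallest p, those passing on 1 version, up to 4 members of smallest p per list, and a fixed set. Further list members were named after their values were seen. The members, the 32 gene lists and the fixed set were chosen with earlier results of these data known. The fits were tested on simulated data. Alternatives covered normalization, filter, floor, trend, control arrays, the joint model, the hybridization session as a block and each array left out.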

Additional observations from a re-analysis of the deposited data

How the results depend on the processing

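Over both chip versions, where 7 probe sets passed by limma, 5 to 7 passed after quantile normalization, with a minimum signal of 200, a floor of 16 or no intensity trend. The count was also 5 to 7 with arrays of 1 RNA averaged, or with z scores of both tables summed and their correlation allowed for. Not all were the same probe sets. Without the intensity trend 4 of the main 7 still passed, and with arrays of 1 RNA averaged 6 did. The count was 0 without a signal filter (9977 tested, smallest adjusted p = 0.0608, 722 at an unadjusted p under 0.05), 11 with a floor of 64, 19 without control arrays, 15 with arrays as independent and 37 with independent z scores. The replicate number on U74Av2 equals the session. With the session as a replicate block 10 passed over both versions, 22 on U74Av2 and 0 on U74A. Deviations of same-numbered U74Av2 arrays from their group means correlated at 0.179, 0.08 and 0.17, so the numbers are not shown to pair the samples. Alternatives chosen after seeing the data gave 55 for that block without the random block, 2 for the exact day as a block (Mt2 and Mt1), 13 without the third-day controls, whose Actb 3' to 5' ratios were highest, 29 with the block added, and 3 with the block and without the SB203580 array of highest Gapdh ratio. On U74Av2, 3 became 0 after quantile normalization, without a filter, with a minimum signal of 200, with a floor of 64 or without the trend. On U74A, 0 became 73, all lower, without a filter and 5 without control arrays. Leaving out 1 array gave 1 to 25 over both versions, 0 to 24 on U74Av2, 0 to 4 on U74A and 0 for the difference between versions. Without the SB203580 array of U74A the last 2 could not be fitted. The causes were not tested. Among single genes and probe sets, 3672 repeated values kept their call, 103 came to pass, 41 no longer passed and 0 calls reversed. Values that did not pass could change sign, as Lefty1 did from 0.08 to -0.16 with the session block. With 1 or 2 arrays per group, the median 95% confidence interval reached 0.75 on the log2 scale to either side.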

Other observations

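Other lists held members whose signals separated between the compounds. None passed the joint limma fit, though some did in alternative fits, such as Igf2 and Tfap2c. Of all genes 12.1% separated as higher and 8.17% as lower. The higher shares of the imprinted (12.5%), endoplasmic reticulum stress (11.8%) and anti-apoptotic lists (10%) lay near that of all genes. Imprinted genes, which are expressed from 1 parental copy, separated in both tables as higher with PD169316 in 2 of 16 and as lower in 3, with a median log2 difference of 0.01. The higher ones were Igf2 and Sgce (1.20 ± 0.36), and the lower ones the neuronal gene Nnat (-0.87), the cell cycle inhibitor gene Cdkn1c (-0.84) and Dlk1 (-0.36). Nnat had signals of 223 and 206 with PD169316 against 542 with SB203580 on U74A, and 269.7 and 456 against 467 and 554 on U74Av2. Its untreated arrays lay at 157 to 259.7 over both tables, below every SB203580 array. Retinoic acid response genes had 6 members tested, of which 3 separated as higher and 1 as lower. Stra8, a retinoic acid-induced gene of germ cells, had 1051 and 134 with PD169316 against 102 on U74A, and 1184 and 204 against 151 and 64.1 on U74Av2. Its third-day PD169316 arrays were several times the others, and the 95% confidence interval of its difference ran from 0.48 to 3.52 (limma, adjusted p = 0.401).

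In the epiblast, ectoderm and neural list 4 of 10 genes separated as higher, namely the adhesion gene Ncam1 (1.26), the growth cone gene Gap43 (1.15), the retinoic acid-binding protein gene Crabp2 (1.15) and the intermediate filament gene Nes (0.73), and Pou3f1 as lower. The endoplasmic reticulum stress list had 2 of 17 higher and 3 lower (median 0.03), beside 12.1% higher and 8.17% lower over all genes. In it the chaperone gene Hspa5 was at -0.65 ± 0.21 and Atf5 at 1.11. Of 14 cholesterol and fatty acid synthesis genes 1 separated, Fdft1, the squalene synthase, at 0.71. Interferon-responsive genes separated in 0 of 9, and anti-apoptotic genes in 1 of 10, which was Clu (0.47). In the smaller lists, trophoblast genes separated as higher in 1 of 5, which was Tfap2c, primitive streak and mesoderm genes as lower in 1 of 4, xenobiotic metabolism genes as higher in 1 and lower in 1 of 4, ES markers as lower in 2 of 6, fibroblast genes in 0 of 3 and endothelial and blood genes in 0 of 5.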
